A study of Homo sapiens with 6 samples.

Results

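Notch receptors, ligands, nuclear partners and target genes were followed in 293T cells given a miR-941 mimic. The 10 genes were NOTCH1, NOTCH2, NOTCH3, DLL1, JAG1, JAG2, RBPJ, MAML1, HES1 and HEY1, of 26613 genes listed in any library. They were chosen from the pathway by name with the mimic-against-mock counts of these libraries already known, so their differences are given as a description and support nothing further. 293T is a readily transfected line made from human embryonic kidney cells by adding the SV40 large T antigen, and it stands for 1 cell line only. Cells of the mimic group (3 libraries) received a miR-941 duplex in a cationic lipid reagent at 10 nM, and cells of the mock group (3 libraries) a scrambled oligonucleotide at a concentration the labels do not give. Both groups were plated 24 h before transfection in medium without antibiotics, and the labels call the transfections independent.

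Notch receptors are single-pass membrane proteins that are cut by furin, glycosylated on their EGF repeats and activated by ligands of the Delta and Jagged families on neighbouring cells. Ligand binding and ligand endocytosis expose the receptor to an ADAM protease and then to gamma-secretase, which frees the intracellular domain. In the nucleus this domain binds the DNA-binding protein RBPJ and a Mastermind coactivator, and genes of the HES and HEY families, themselves transcriptional repressors, are switched on.

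The libraries held between 6079420 and 7651046 counts each, at which 3 counts correspond to 0.392 to 0.493 CPM (counts scaled to a common library total). In a principal component analysis component 1 separated the groups, with scores of −12.5, −12.5 and −16.2 in mimic and 14.2, 11.7 and 15.3 in mock. Mimic replicate 3 scored −18.9 on component 2, where mimic replicates 1 and 2 scored 8.44 and 13.6. Mock replicate 3 scored 18.6 on component 3, where mock replicates 1 and 2 scored −11.6 and −8.31. Of 6 markers reported in HEK293 cells, VIM, KRT8, KRT18, NEFM and PAX2 were present in all libraries. NEFL was listed in none under the 1 gene ID searched. Of the 26613 genes listed, 25236 were in the annotation used here, so NEFL may have been counted under another ID. NEFM (78.3 to 83.7 CPM in mimic, 54.0 to 58.1 CPM in mock) and KRT18 (213 to 227 against 187 to 203 CPM) did not overlap between the groups. The same was so for 28.3% of all tested genes, and the part of these 2 markers in the results was not tested. Of 11 markers of leukocytes, endothelium, liver, muscle and fibroblasts, COL1A1 stood at 35.3 to 41.0 CPM and DES at 1.39 to 1.84 CPM, and the other 9 at no more than 0.981 CPM.

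The mimic delivers the mature miR-941 strand, which pairs through its seed with mRNAs, and its sequence is shown so that the sites searched below can be read against it. It is encoded at 5 loci on chromosome 20, is given here from RefSeq on GRCh38.p14, and has its seed, bases 2 to 8, in capitals.
hsa-miR-941: cACCCGGCugugugcacaugugc

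None of the 10 genes had a site for the miR-941 seed in the longest annotated 3′ UTR of its protein-coding transcripts. This held for the 7-base site GCCGGGT, complementary to bases 2 to 8, for the same site followed by A, and for the 6-base site CCGGGT. It also held for the 7-base site in every other annotated 3′ UTR of these genes. Among 13015 tested genes with a 3′ UTR, 634 or 4.87% had the 7-base site and 1740 or 13.4% the 6-base site, shares that amount to few genes in a set of 10. In the coding sequence, a region added after the 3′ UTRs had been searched, NOTCH1, NOTCH3 and MAML1 had 1 GCCGGGT match each, against 809 of 13015 genes or 6.22%. Their coding sequences hold 7668, 6966 and 3051 bases, and NOTCH2, with 7416, had no match. A longer sequence has more places for a match, and the share over all genes is not matched for length, so no excess is read from it.

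The first question was how much of each Notch gene the cells held and in what order. Per kilobase of exon, the target HES1 had the highest level in the mock group and NOTCH3 the lowest, 12.4-fold apart. HES1 stood at 29.6 ± 2.03 CPM per kilobase (SD, n = 3), above the Mastermind coactivator MAML1 at 19.4 ± 0.893 and the target HEY1 at 18.3 ± 0.570. NOTCH2, the receptor with the highest level, had 13.6 ± 0.461 CPM per kilobase and RBPJ 13.0 ± 0.282. JAG1 was the ligand with the highest level, at 7.17 ± 0.322 CPM per kilobase.

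The low end of the order held 4 genes close together. NOTCH1 stood at 3.57 ± 0.392 CPM per kilobase, JAG2 at 3.54 ± 0.279, DLL1 at 3.04 ± 0.744 and NOTCH3 at 2.39 ± 0.0617, and each overlapped its neighbour in this order. MAML1 overlapped HEY1, and NOTCH2 overlapped RBPJ. The other 4 neighbouring pairs did not overlap. Counted by the longest transcript instead of all exons, 4 neighbouring pairs again did not overlap, but HEY1 (25.7 ± 0.803) then lay above MAML1 (20.2 ± 0.927) without overlap.

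**Figure D1:**
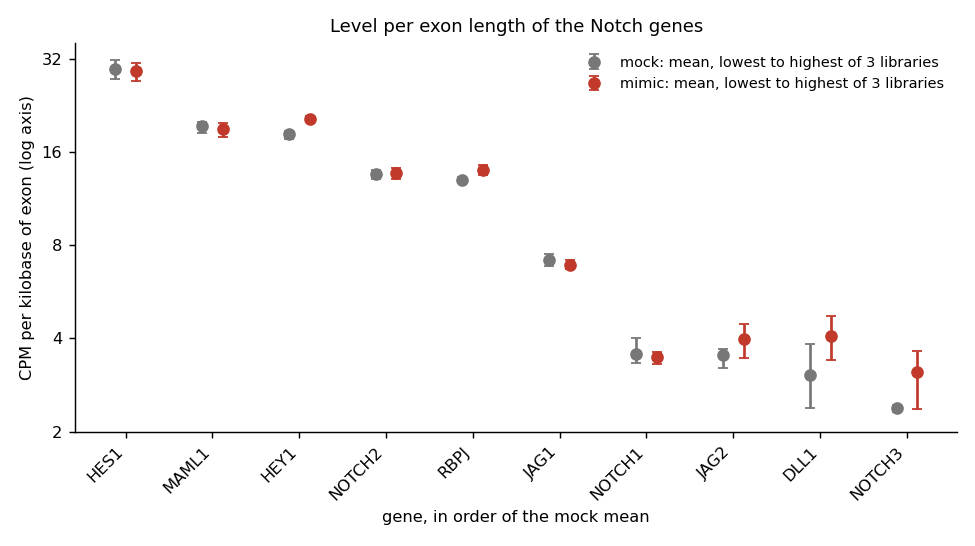
Level of the 10 Notch genes in CPM per kilobase of exon (log axis), in order of the mock mean. Points are means and bars run from the lowest to the highest of 3 libraries, in grey for mock and red for mimic. HES1 lies highest in both groups, and NOTCH1, JAG2, DLL1 and NOTCH3 form a low group, with the mimic means of DLL1 and NOTCH3 above the mock means.

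The second question was which of these genes differed between mimic and mock cells. NOTCH3 and DLL1 were the 2 that passed the threshold, both higher in the mimic group, by 0.40 ± 0.11 and 0.45 ± 0.15 on the log2 scale (SE). None of the 10 passed as lower. The other receptors, both Jagged ligands, both nuclear partners and both targets did not pass. The threshold was an adjusted p under 0.05 in edgeR's quasi-likelihood test fitted across 15607 genes, in which 13.0% passed in either direction, 6.80% as higher and 6.19% as lower. With 2 of 10 genes, chosen with this comparison known, nothing is read from the count. The median log2 fold change of the 10 was 0.06, against 0.00 over all tested genes, and 6 of 10 were above 0. Since the libraries are bulk RNA, a change in every cell and one in some of the cells cannot be told apart.

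NOTCH3, a receptor known from vascular smooth muscle, lies on chromosome 19 from 15159038 to 15200981 (GRCh38, minus strand). Its levels were 31.3, 34.3 and 22.3 CPM in mimic replicates 1, 2 and 3, from 238, 246 and 142 counts. In mock replicates 1, 2 and 3 they were 22.6, 21.8 and 22.9 CPM, from 167, 157 and 140 counts. Mimic replicates 1 and 2 were thus above every mock library, while mimic replicate 3 lay within the mock range. The 95% Poisson interval of mimic replicate 2, 30.1 to 38.8 CPM, did not reach that of mimic replicate 3, 18.8 to 26.3 CPM. These intervals cover counting error only.

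The spread of NOTCH3 was unequal between the groups, with a coefficient of variation of 21.3% in the mimic group and 2.59% in the mock group. Without mimic replicate 3 its log2 fold change was 0.55 ± 0.10, and it passed. It did not pass without mimic replicate 1 (0.35 ± 0.13) or without mimic replicate 2 (0.27 ± 0.12), nor with DESeq2 (0.39 ± 0.15). Mimic replicate 3 is the library that stands apart on component 2, and its part in the result beyond these values was not tested.

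NOTCH1 and NOTCH2, the widely expressed receptors, were close to equal in the groups. NOTCH2 had 219, 231 and 239 CPM in the mimic libraries and 221, 226 and 236 in the mock libraries. NOTCH1 had 34.3, 37.5 and 36.6 CPM in the mimic libraries and 34.6, 34.7 and 41.7 in the mock libraries, with mock replicate 3 highest. Both pairs of groups overlapped, with log2 fold changes of 0.01 ± 0.05 for NOTCH2 and −0.03 ± 0.09 for NOTCH1. NOTCH2 shares read-length stretches with copies of its 5′ part, 15.9% of its 100-base stretches with NBPF19, 14.6% with NOTCH2NLA and 0.966% with AC239799.1. Over the 6 libraries AC239799.1 had 557 counts against 9551 for NOTCH2. NBPF19 and NOTCH2NLA were listed in no library, and the counting annotation may have lacked them. The NOTCH2 level is therefore less certain than the others.

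Among the ligands, DLL1 of the Delta family lies on chromosome 6 from 170282206 to 170306565 (GRCh38, minus strand). It had 15.3, 13.1 and 11.0 CPM in mimic replicates 1, 2 and 3, from 116, 94 and 70 counts. In mock replicates 1, 2 and 3 it had 7.71, 9.29 and 12.4 CPM, from 57, 67 and 76 counts. The groups overlapped, since mock replicate 3 lay above mimic replicate 3 and only mimic replicates 1 and 2 were above every mock library.

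DLL1 passed in 5 of 11 other settings of the fit. Without mock replicate 1, the library with the lowest level, its log2 fold change was 0.30 ± 0.16 and it did not pass. Nor did it without mimic replicate 1 (0.32 ± 0.17), mimic replicate 2 (0.46 ± 0.17) or mock replicate 2 (0.42 ± 0.17), or with DESeq2 (0.43 ± 0.20). It passed without mimic replicate 3 (0.55 ± 0.15) and without mock replicate 3 (0.64 ± 0.17). Its counts were the lowest of the 10 genes, and the 95% Poisson intervals of mimic replicate 3 (8.57 to 13.9 CPM) and mock replicate 3 (9.79 to 15.6 CPM) overlapped.

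The Jagged ligands differed less. JAG2 had 25.9, 28.4 and 22.1 CPM in the mimic libraries and 23.7, 23.7 and 20.6 in the mock libraries, with a log2 fold change of 0.17 ± 0.10. As for NOTCH3 and DLL1, mimic replicate 3 had the lowest JAG2 level of the mimic group, and it lay within the mock range. Without it the log2 fold change of JAG2 was 0.25 ± 0.11 and did not pass. JAG1 had 66.5, 62.1 and 63.6 CPM in the mimic libraries and 66.4, 69.7 and 63.8 in the mock libraries (−0.06 ± 0.07), and the groups overlapped. Exons of JAG2 overlap those of AL512356.1 on the same strand over 469 bases, and that gene was counted at 19.3% of the JAG2 reads.

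RBPJ, which binds DNA at Notch target genes, and HEY1, a target, were the 2 genes whose groups did not overlap. RBPJ had 134, 131 and 125 CPM in the mimic libraries against 123, 120 and 118 in the mock libraries. HEY1 had 65.9, 67.7 and 65.3 CPM against 60.3, 57.0 and 60.0. In both genes every mimic library was above every mock library, but the differences were small, 0.11 ± 0.05 for RBPJ and 0.17 ± 0.07 for HEY1, and neither passed in the main fit or in any of the 11 other settings. Over all tested genes, 28.3% had groups that did not overlap, and 2 of 10 was not above that share. NOTCH3 and DLL1, which passed, were among the genes whose groups overlapped.

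MAML1, the coactivator, and HES1, the classical target, were level between the groups. MAML1 had 114, 106 and 118 CPM in the mimic libraries and 109, 117 and 119 in the mock libraries (−0.03 ± 0.06). HES1 had 64.2, 60.6 and 56.2 CPM in the mimic libraries and 65.3, 57.0 and 60.8 in the mock libraries (−0.01 ± 0.07). Both overlapped, and the sign of their log2 fold change, like those of NOTCH1 and NOTCH2, turned when single libraries were left out.

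**Figure D2:**
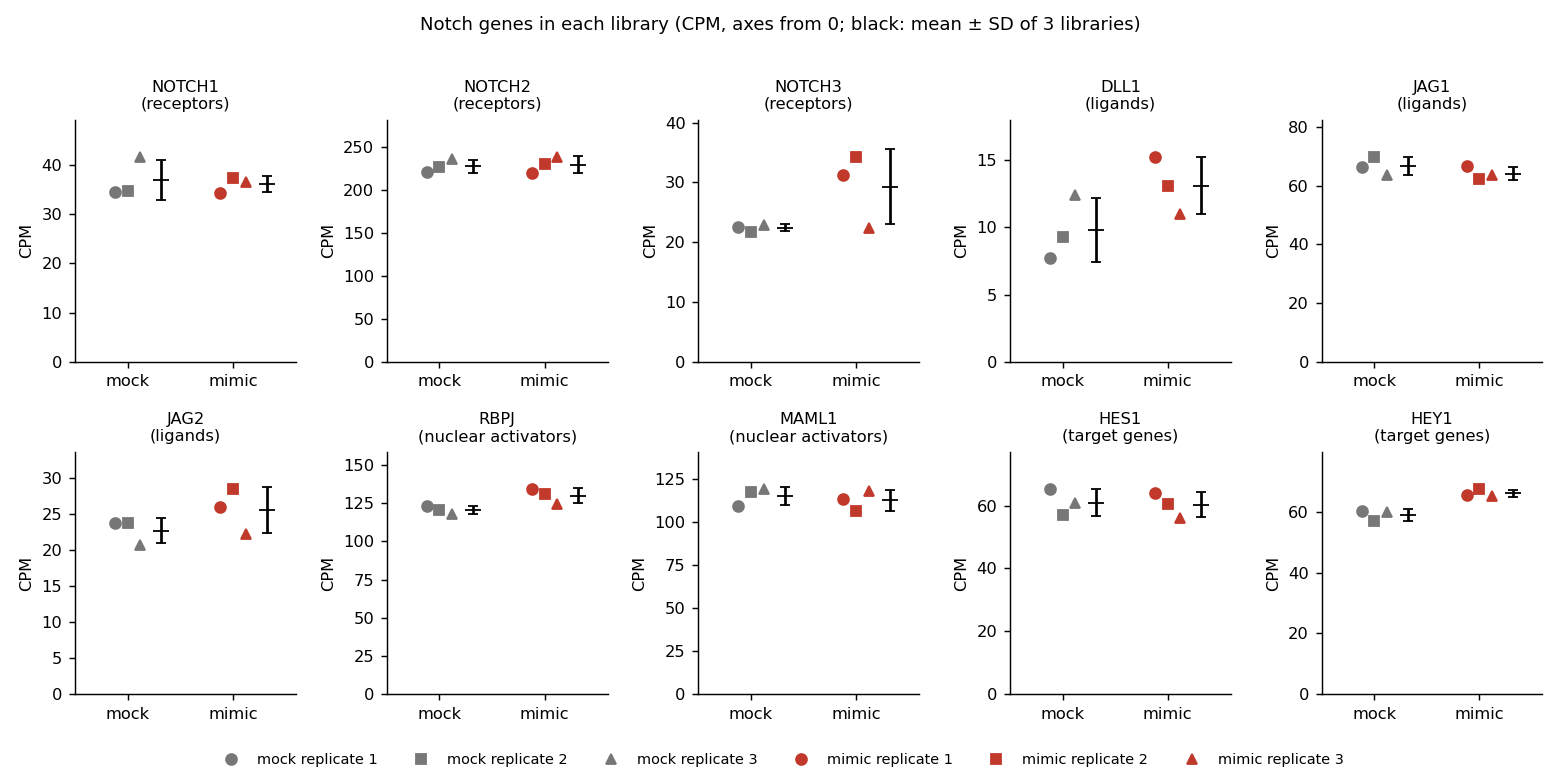
Level of each of the 10 Notch genes in CPM in every library, with axes from 0. Grey marks are mock and red marks mimic libraries, circles, squares and triangles are replicates 1, 2 and 3, and black bars are the mean ± SD of 3 libraries. In NOTCH3 mimic replicates 1 and 2 lie at 31.3 and 34.3 CPM and the third, at 22.3 CPM, among the mock libraries, while RBPJ and HEY1 are the 2 genes without overlap.

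The third comparison took the target genes together, with 9 further targets. NRARP, a target that also restrains the Notch intracellular domain, rose. It had 32.7, 29.3 and 39.7 CPM in the mimic libraries and 23.9, 27.3 and 30.1 in the mock libraries, a log2 fold change of 0.32 ± 0.10 (edgeR's quasi-likelihood test, adjusted p = 0.0211). Its groups overlapped, as mock replicate 3 lay above mimic replicate 2. The call ended without mimic replicate 3 (0.20 ± 0.10, adjusted p = 0.188), without mock replicate 1 (adjusted p = 0.19) and with DESeq2, and the adjusted p ranged from 0.00333 to 0.19 over the 11 settings. Mimic replicate 3 was the highest library for NRARP, whereas for NOTCH3 it was the lowest of the mimic group.

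No other target passed with all libraries. HES4 had a log2 fold change of 0.26 ± 0.12 (24.7, 29.4 and 24.6 CPM against 20.3, 18.2 and 28.0), with mock replicate 3 inside the mimic range. Without mock replicate 3 its log2 fold change was 0.45 ± 0.12, and this was the 1 setting of 11 in which HES4 passed (adjusted p = 0.00888 by edgeR, in a range of 0.00888 to 0.539). HEY2 (−0.01 ± 0.08), HEYL (−0.02 ± 0.15), HES6 (−0.02 ± 0.15), MYC (0.07 ± 0.11) and CCND1 (−0.12 ± 0.06), all given as values whatever their size, did not pass either. HES7 had 2 to 10 counts per library and was not tested, and HES5 was listed in no library, which allows up to 0.392 to 0.493 CPM. Of 7 further targets tested, 1 rose and none fell, where 6.80% of all tested genes rose and 6.19% fell, and their median log2 fold change was −0.01. At an unadjusted p under 0.05 by edgeR, NRARP and HES4 passed as higher in mimic and CCND1 as lower. So did 3979 of all 15607 tested genes in either direction, and nothing is read from this count.

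The upstream sequences of HES1, HES4 and HES5 were picked from the targets because they hold the RBPJ core motif at like distances from the start. HES1 and HES4 were counted in every library and HES5 was listed in none. Each run is the 120 bases before the annotated start from RefSeq on GRCh38.p14, 5′ to 3′ along the gene, with TGGGAA in capitals. HES1 lies at chr3:194136028-194136147 on the plus strand, HES4 at chr1:1000098-1000217 and HES5 at chr1:2530264-2530383, both on the minus strand.
HES1: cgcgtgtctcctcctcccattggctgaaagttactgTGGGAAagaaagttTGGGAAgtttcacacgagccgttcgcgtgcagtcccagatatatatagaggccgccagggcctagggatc
HES4: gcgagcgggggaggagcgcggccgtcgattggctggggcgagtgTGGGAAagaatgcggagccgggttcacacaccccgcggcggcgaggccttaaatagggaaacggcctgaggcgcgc
HES5: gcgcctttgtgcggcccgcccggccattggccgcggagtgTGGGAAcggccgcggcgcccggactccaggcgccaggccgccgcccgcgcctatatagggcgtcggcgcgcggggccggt

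Within these 120 bases the motif began in HES1 at −84 and −70, in HES4 at −76 and in HES5 at −80, counting the base before the start as −1. Of the other targets searched in the same 120 bases, HEYL had 1 match, at −99, and HES6, HES7, HEY2 and NRARP had none. The search used TGGGAA and its reverse complement TTCCCA in the window from 250 bases before to 50 bases after each annotated start, with no other motif searched. Of 35116 such windows, 24.0% held a match and 3.80% held at least 2. Windows were found for 8 of the 10 genes, 12 windows in all, and 2 of these (16.7%) held a match, 1 of HES1 and 1 of RBPJ. Among the windows of the wider pathway list 24.7% held a match. The windows of NRARP, HES6 and HES7 held none, and those of HES5, HEY2 and HEYL held 2 each. A match describes letters and not binding. HES1 was at 57.0 to 65.3 CPM in the mock libraries and HES4 at 18.2 to 28.0 CPM, while HES5 was listed in no library. These levels are not per kilobase, and the exons hold 2062 bases in HES1 and 1118 in HES4. The CPM therefore do not measure how far apart the genes lie.

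The last comparison placed these genes in the rest of the pathway. With earlier results of these data already known, 70 further genes were listed by role from textbook knowledge. Of 64 that were tested, 8 rose and 5 fell, or 20.3% against 13.0% of all tested genes. DLK2, NRARP, HDAC1, GXYLT1, EPN1, MIB2 and NUMBL were among the genes that rose, and EP300, SPEN, PSEN2 and EOGT among those that fell. The median log2 fold change was 0.02, against 0.00 over all genes, and 36 of 64 were above 0. In 21 of 64, or 32.8%, the groups did not overlap, close to the 28.3% of all genes. These counts describe the list and are not a test of it. Of the 6 genes not tested, NOTCH4, DLK1 and HES5 were listed in no library and HES7, MFNG and DTX1 had few counts.

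Of the genes for the proteases that cut the receptor, PSEN2, which encodes a catalytic subunit of gamma-secretase, fell. It had 40.0, 36.9 and 38.8 CPM in the mimic libraries and 44.9, 46.5 and 47.2 in the mock libraries. Every mimic library was below every mock library, and the log2 fold change was −0.26 ± 0.08 (adjusted p = 0.0163 by edgeR's quasi-likelihood test). The PSEN2 call ended with DESeq2 and when mimic replicate 2, mock replicate 2 or mock replicate 3 was left out, with adjusted p from 0.0151 to 0.0938 over the 11 settings. The furin gene FURIN (−0.117 ± 0.048) and the sheddase genes ADAM10 (−0.035 ± 0.065) and ADAM17 (−0.067 ± 0.068) did not pass. In FURIN the groups did not overlap, as in 28.3% of all tested genes, and in ADAM10 and ADAM17 they did.

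Of 8 tested genes for enzymes that put sugars on the EGF repeats, 1 rose, 1 fell and 6 did not pass, where 6.80% of all tested genes rose and 6.19% fell. GXYLT1, which adds xylose to O-glucose, had 118, 114 and 122 CPM against 92.8, 96.9 and 90.9 in the mock libraries (0.33 ± 0.06, adjusted p = 7.58e-06 by edgeR's quasi-likelihood test). EOGT, which adds O-linked N-acetylglucosamine, had 23.4, 22.0 and 23.2 CPM against 30.4, 28.1 and 28.3 (−0.34 ± 0.10, adjusted p = 0.00982). Neither pair of groups overlapped. The EOGT call ended without mock replicate 1 (adjusted p = 0.0745) and with DESeq2 (0.0709), in a range of 0.00914 to 0.0745.

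Of 6 tested genes that ubiquitinate or internalise the ligands in the sending cell, 2 rose, none fell and 4 did not pass, beside the same 6.80% and 6.19% of all tested genes. EPN1, an endocytic adaptor of the epsin family, had 169, 175 and 174 CPM against 135, 124 and 139 in the mock libraries (0.39 ± 0.05, adjusted p = 3.33e-08 by edgeR's quasi-likelihood test). MIB2, a ubiquitin ligase for Delta, had 55.1, 63.2 and 61.7 CPM against 45.6, 52.1 and 47.9 (0.30 ± 0.07, adjusted p = 0.00203). In both genes all mimic libraries were above all mock libraries. NEURL1B, another ubiquitin ligase of the group, had a log2 fold change of 0.42 ± 0.15 (adjusted p = 0.055) and passed in 4 of 11 other settings, with adjusted p from 0.0152 to 0.521. DLK2, a non-canonical ligand, had 8.81, 8.91 and 9.73 CPM against 5.41, 6.38 and 7.85 (0.49 ± 0.17, adjusted p = 0.0424). That call ended when any library other than mock replicate 3 was left out, with no filter on low counts and with a replicate block (adjusted p = 0.0504), and its adjusted p ranged from 0.0263 to 0.256. Its exons overlap those of ABCC10 on the opposite strand over 79 bases, and ABCC10 was counted at 818% of its reads. As no source states a strand setting for the counting, DLK2 is uncertain.

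EPN1 and AAK1, a kinase that acts on Numb, were the 2 tested genes of the wider list with a GCCGGGT site in the longest 3′ UTR (3.12%, against 4.87% of all genes); AAK1 was named after its values were seen. The sites are shown with 10 bases on either side and the site in capitals, from GENCODE release 29 transcripts. The EPN1 site lies at chr19:55696189-55696195 on the plus strand of GRCh38, at base 833 of the 14177 in its 3′ UTR. The AAK1 site lies at chr2:69471559-69471565 on the minus strand, at base 4304 of the 8082 in its 3′ UTR. Both genes have other annotated 3′ UTRs, and which of them the cells used was not tested.
EPN1: ctcctggaaaGCCGGGTcagcctctgc
AAK1: tgcccagtgtGCCGGGTtaagcaaatt

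The gene with the larger difference of this pair, EPN1, was higher in the mimic group, and AAK1 had a log2 fold change of −0.08 ± 0.10 and did not pass (23.7, 27.0 and 31.6 CPM against 26.2, 30.0 and 30.2). The 5 genes that fell had no GCCGGGT site in that 3′ UTR. A share of 4.87% of all tested genes amounts to few sites among 5 genes. What part the sites had in these differences was not tested.

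Of 15 nuclear repressors tested, 12 did not pass, where 13.0% of all tested genes passed in either direction. SPEN, a corepressor that binds RBPJ, had 769, 784 and 835 CPM against 938, 962 and 952 in the mock libraries (−0.26 ± 0.04, adjusted p = 9.19e-06 by edgeR's quasi-likelihood test). HDAC1, a histone deacetylase, had 203, 201 and 205 CPM against 168, 164 and 172 (0.27 ± 0.05, adjusted p = 2.18e-05). Neither gene overlapped between the groups, and HDAC1 rose while SPEN fell.

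Among 7 further activators tested, none rose, EP300 fell and 6 did not pass, where 6.80% of all tested genes rose and 6.19% fell. EP300, an acetyltransferase recruited with Mastermind, had 258, 265 and 312 CPM against 300, 318 and 308 (−0.15 ± 0.05, adjusted p = 0.0449). Mimic replicate 3 lay within the mock range, and without it the log2 fold change was −0.24. The call ended when any of the other 5 libraries was left out, with DESeq2 and with a minimum mean of 5 CPM, and the largest adjusted p of the 11 settings was 0.316. Of 9 tested genes of receptor endocytosis and turnover, NUMBL, a relative of the Notch inhibitor Numb, rose and 8 did not pass. This stands beside the same 6.80% and 6.19% of all tested genes. NUMBL had 31.3, 29.1 and 30.6 CPM against 26.8, 23.9 and 24.7, without overlap. Its log2 fold change was 0.27 ± 0.09 (adjusted p = 0.0416), and the call ended without mimic replicate 1, mimic replicate 3, mock replicate 2 or mock replicate 3, with DESeq2 and with no filter on low counts, in a range of 0.036 to 0.185.

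**Figure D3:**
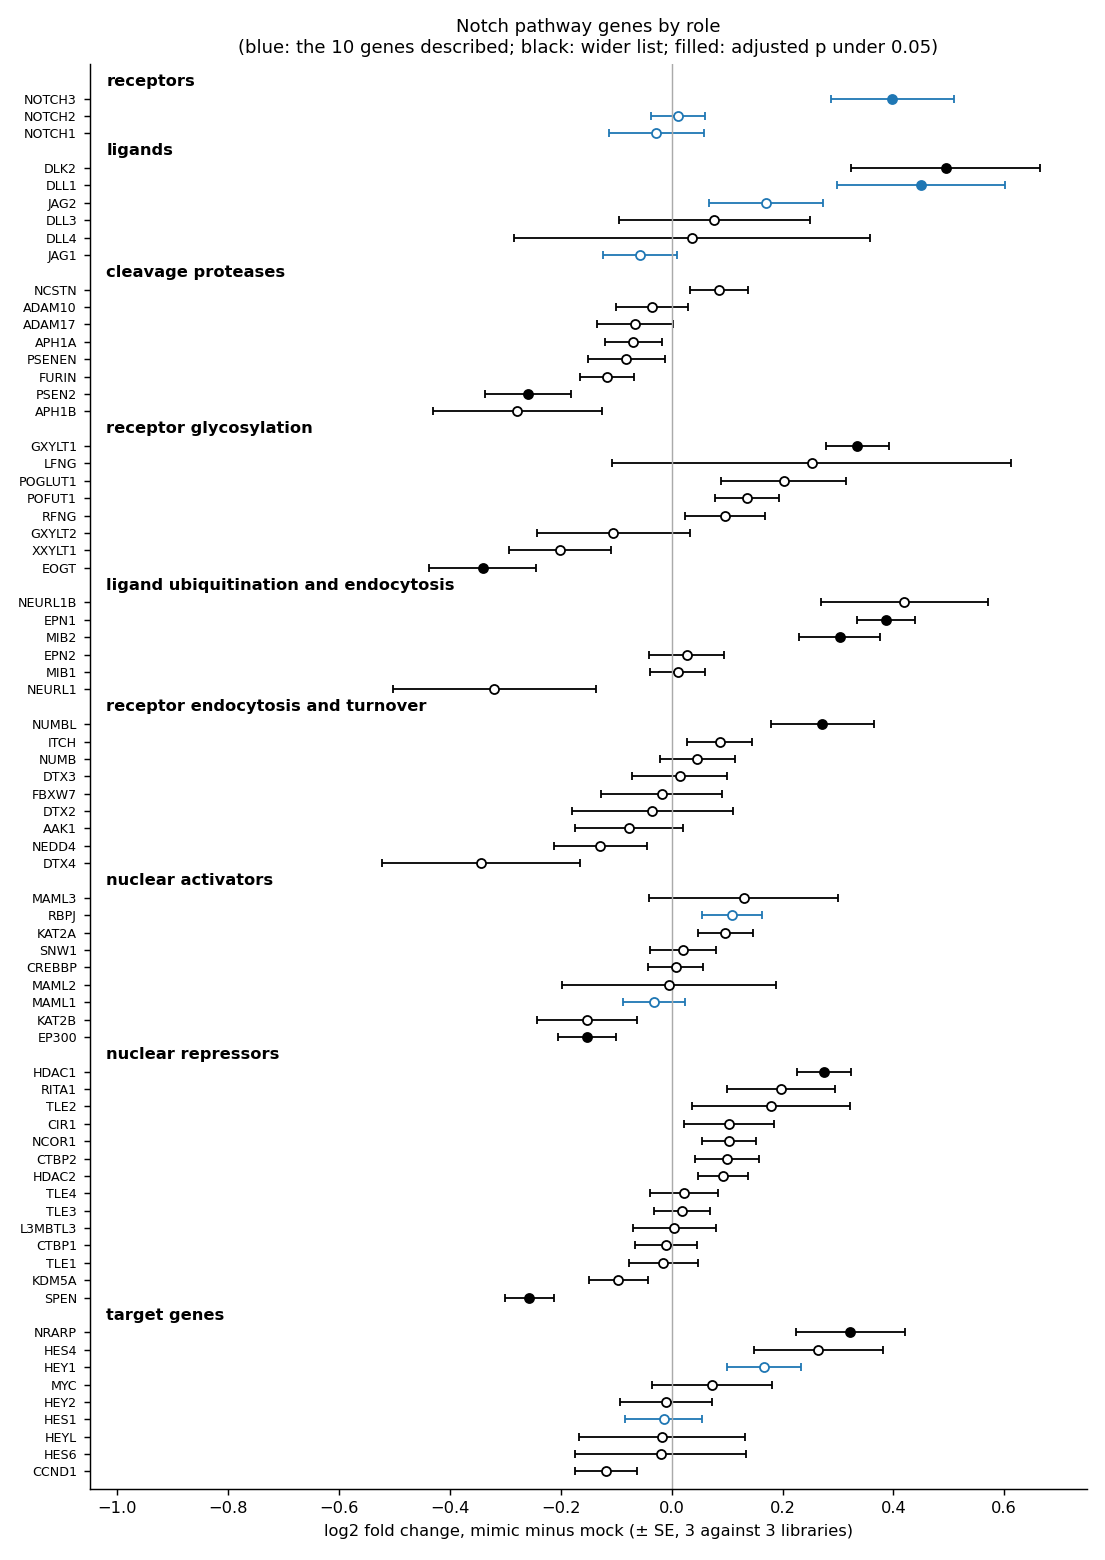
Log2 fold change (mimic minus mock, ± SE, 3 against 3 libraries) of tested Notch pathway genes, grouped by role, without the genes not reported here. Blue points are the 10 genes described first, black points the wider list, and filled points have an adjusted p under 0.05. NOTCH3 (0.40) and DLL1 (0.45) are the filled blue points, and EOGT, PSEN2, SPEN and EP300, which fell, lie left of 0.

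In this wider list, 7 of the 13 calls, those of SPEN, HDAC1, GXYLT1, MIB2 and EPN1 among them, held in all 11 other settings, and 6 were lost in at least 1. DESeq2 called 7 of the wider list and none of the 10 genes above, against 8.70% of the 11673 genes to which it gave an adjusted p. At an unadjusted p under 0.05 by that tool, 2 of the 10 passed. No share of all genes under that threshold is given beside it, so nothing is read from it.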

How the data were processed

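Raw whole-number counts per Ensembl gene were deposited for each library. STAR, edgeR and hg19 appear in the submitters' processing notes without versions. The sources used here give no counting program, annotation, strand setting or time from transfection to extraction. Per the labels' protocols, ribosomal RNA was removed and single reads of 100 bases were made. Genes missing from a library's table were set to 0. These may include genes that the counting annotation lacked or held under another ID.

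Counts were filtered with edgeR's filterByExpr (15607 genes kept), scaled with TMM factors (0.994 to 1.006) and tested with edgeR's quasi-likelihood test (robust, group only, two-sided, Benjamini-Hochberg adjustment over all tested genes, threshold 0.05). The test was run on simulated data first. CPM use the TMM factors, and SEs come from the test statistic. Same-group libraries differed by 1.27 to 2.38 times sampling noise, so each counted as 1 replicate. Versions were R 4.3.3, edgeR 4.0.16 and DESeq2 1.42.0.

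The 10 genes, the wider list and the rules were chosen with earlier results of these data known. Named from the wider list were, per role, up to 3 genes past the threshold by smallest p, or, where none passed, the 2 with the highest mean CPM. Some genes of the list are counted but not reported here by name. The remaining target genes, FURIN, ADAM10, ADAM17, NEURL1B and AAK1 are named outside this rule. Annotation is GENCODE release 29 on GRCh38, used for names, lengths and sequences, and not with hg19 coordinates. Alternatives were another scaling, DESeq2, other filters, a replicate block and leaving out each library.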

Additional observations from a re-analysis of the deposited data

How the results depend on the processing

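Counts of called genes moved with some settings. DESeq2's Wald test called 1015 genes in place of 2027, 7 of the wider Notch list in place of 13, and 0 of the 10 genes in place of 2, with 2 at an unadjusted p under 0.05 by DESeq2. Leaving out 1 library at a time gave 1302 to 2061 genes over all (lowest without mock replicate 1), and 0 to 2 of the 10 genes, with 0 without mimic replicate 1 or 2 and 1 without mock replicate 1 or 2. At an unadjusted p under 0.05 by edgeR, 2 of the 10 passed in each of these 4 fits. With all libraries 4 of the 10 did, beside 3979 of 15607 tested genes. Nothing is read from the unadjusted counts of either tool. The wider list had 9 to 11 calls when 1 library was left out, of which 9 or 10 were shared with the fit to all libraries. NEURL1B was gained without mimic replicate 2, mimic replicate 3 or mock replicate 1, and HES4 without mock replicate 3.

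With a replicate block, 1819 genes, 13 of the wider list and 1 of the 10 (NOTCH3) were called. Of those 13, 12 were shared with the fit without the block, DLK2 was lost and NEURL1B was gained. No pairing by replicate number was visible, as deviations of same-numbered libraries correlated at 0.0437, −0.0505 and −0.0173, so the block is given once. Deviations were taken from group means of 3 libraries. The check cannot show whether same-numbered transfections were done together.

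Differences near 0 turned sign when single libraries were left out. On the log2 scale NOTCH1 ranged from −0.0740 to 0.0584, NOTCH2 from −0.0178 to 0.0429, MAML1 from −0.0709 to 0.0061 and HES1 from −0.0644 to 0.0395. In the wider list HES6 ranged from −0.1873 to 0.1331, HEY2 from −0.0944 to 0.0574, HEYL from −0.1617 to 0.0864 and AAK1 from −0.1841 to 0.0219. The cause was not tested. Searching the coding sequence gave 3 of the 10 genes with a seed match in place of 0. Other scaling and filters changed no call of the 10 genes, and at these depths DLL1, with 57 to 116 counts per library, was the least precise of them.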
